A study of Mus musculus with 10 samples.

Results

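The genes described here are 10 genes known as neutrophil genes: S100a8, S100a9, Csf3r, Cxcr2, Mmp8, Mmp9, Ngp, Ltf, Retnlg and Il1b. They were chosen by name, and all 10 were found among the 19414 genes of the deposited liver table. The study sequenced poly-A RNA from the livers of 10 females of the HET3 stock, a cross of several inbred strains in which each mouse has its own genotype. Of these mice 5 were fed a standard diet and 5 the Longevity diet for 5 months, and the labels give an age of 25 months. Both groups carried no other treatment or allele by the labels, and whether the livers were cleared of blood is not given in the sources used here. Mice are named by title, such as SD_403 for a mouse on the standard diet and LD_405 for one on the Longevity diet.

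Neutrophils are short-lived white blood cells made in the bone marrow. Their granules are filled in sequence as the cell matures: primary (azurophil) granules with Mpo, Elane, Prtn3 and Ctsg, then secondary (specific) granules with Ltf, Camp, Ngp and Mmp8, then gelatinase granules with Mmp9. Mature cells express the receptors Csf3r and Cxcr2, the secreted peptide Retnlg and large amounts of S100a8 and S100a9, and they can make Il1b, as macrophages do. Resting liver holds few of them, in its sinusoids and in the blood it contains.

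The promoters of 4 members that varied together across mice are shown first. Each line gives the 250 bases before the start site in RefSeq (GRCm38.p6), 5′ to 3′ on the strand of the gene, with capitals marking a match to TTGCNNAA, a form of the site bound by C/EBP factors, or to GAGGAA, the core bound by PU.1, on either strand. S100a8 at chr3:90668821-90669070, plus strand, and S100a9 at chr3:90695722-90695971, minus strand, encode the subunits of calprotectin. Ngp at chr9:110419558-110419807 and Ltf at chr9:111019042-111019291, both on the plus strand, encode proteins of secondary granules.
S100a8: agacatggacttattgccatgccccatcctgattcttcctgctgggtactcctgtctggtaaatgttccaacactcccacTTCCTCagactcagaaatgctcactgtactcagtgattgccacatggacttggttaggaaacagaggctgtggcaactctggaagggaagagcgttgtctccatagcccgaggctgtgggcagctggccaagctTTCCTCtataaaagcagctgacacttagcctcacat
S100a9: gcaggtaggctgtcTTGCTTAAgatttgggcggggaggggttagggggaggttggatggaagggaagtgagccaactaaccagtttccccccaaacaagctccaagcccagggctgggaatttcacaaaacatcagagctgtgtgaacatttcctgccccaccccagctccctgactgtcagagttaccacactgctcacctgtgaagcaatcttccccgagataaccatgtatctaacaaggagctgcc
Ngp: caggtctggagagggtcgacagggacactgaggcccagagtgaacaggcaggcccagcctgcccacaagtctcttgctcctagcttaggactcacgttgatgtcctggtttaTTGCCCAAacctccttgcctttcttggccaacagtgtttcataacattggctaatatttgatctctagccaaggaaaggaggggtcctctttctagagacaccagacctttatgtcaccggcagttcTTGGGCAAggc
Ltf: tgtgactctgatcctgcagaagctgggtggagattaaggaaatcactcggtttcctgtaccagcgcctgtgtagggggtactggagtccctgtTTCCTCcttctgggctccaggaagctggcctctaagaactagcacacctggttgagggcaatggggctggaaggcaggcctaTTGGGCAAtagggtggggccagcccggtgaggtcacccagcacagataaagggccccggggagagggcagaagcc

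RefSeq held a promoter window for 9 of the 10 members, and the table has none for Mmp9. Each window runs from 250 bases before to 50 bases after the start. TTGCNNAA stood in the windows of 5 members (S100a9, Mmp8, Ngp, Ltf and Retnlg) and in 10.8% of all 32851 promoter windows of 300 bases. GAGGAA stood in those of 5 members (S100a8, Csf3r, Cxcr2, Mmp8 and Ltf) and in 28.3% of all windows. No match of one motif overlapped one of the other in these members. Neither motif was found in the window of Il1b. These matches describe the letters only.

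Levels are in CPM, the reads of a gene per 1000000 assigned to any gene listed, and each library's depth was estimated from the step between its low values. Standard diet libraries had 42.5 ± 4.35 M reads (M, 1000000) and Longevity diet libraries 29.96 ± 6.47 M (mean ± standard deviation, n = 5 mice each, two-sided exact permutation p = 0.0159). A floor of 3 reads corresponded to 0.0657 to 0.121 CPM per library and covers counting error only, and all 100 values of the members lay within 0.1 of a whole read. Differences are on the log2(CPM + 0.1) scale, Longevity diet minus standard diet, which understates changes of low genes. They were tested with limma for the 13157 genes that averaged 1 CPM or more over the 10 mice, with p adjusted over all of these, and a gene is said to have risen or fallen when its adjusted p was under 0.05. Of the genes tested 87 rose and 162 fell, with 154 and 134 under median-of-ratios scaling, 170 and 126 under TMM scaling (trimmed mean of M values) and 151 and 148 under quantile normalization. The hepatocyte markers Alb and Cps1 stood at 62598 to 160835 and 553 to 1861 CPM, which matches the labelled tissue. Values listed without names follow the order SD_403, SD_500, SD_501, SD_502, SD_646 and then LD_405, LD_406, LD_442, LD_513, LD_515.

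S100a8 was the only member past the test, lower on the Longevity diet. That call was lost in 19 of 24 alternative settings, the fit without a filter among them. All 10 members had lower mean log2 levels on the Longevity diet than on the standard diet. The higher levels on the standard diet were uneven. A pair of mice, SD_403 and SD_646, carried most of the S100a8, S100a9, Ngp and Ltf mRNA of the study, whereas Il1b was at a similar level in all 5 mice of that diet. Of 7 members that passed the filter 1 fell and 0 rose, where 1.23% of all genes tested fell, 0.661% rose and 1.89% did either. Some of the 7 passed the filter only through their level on the standard diet, so nothing is read from that count, and all 10 members are given below from a fit without a filter. The 3 scalings moved the median difference of all genes tested from -0.11 to -0.00 (median-of-ratios), 0.02 (TMM) and 0.00 (quantile), and no member tested changed sign under them. S100a8 kept its call under TMM scaling (adjusted p = 0.0486) and lost it under median-of-ratios scaling (0.0510) and quantile normalization (0.0612), with log2 differences of -3.67, -3.69 and -3.48. Without SD_403 and SD_646 together 0 members passed, as without either of them alone. In bulk liver RNA, fewer neutrophils and less RNA per neutrophil cannot be told apart.

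**Figure D1:**
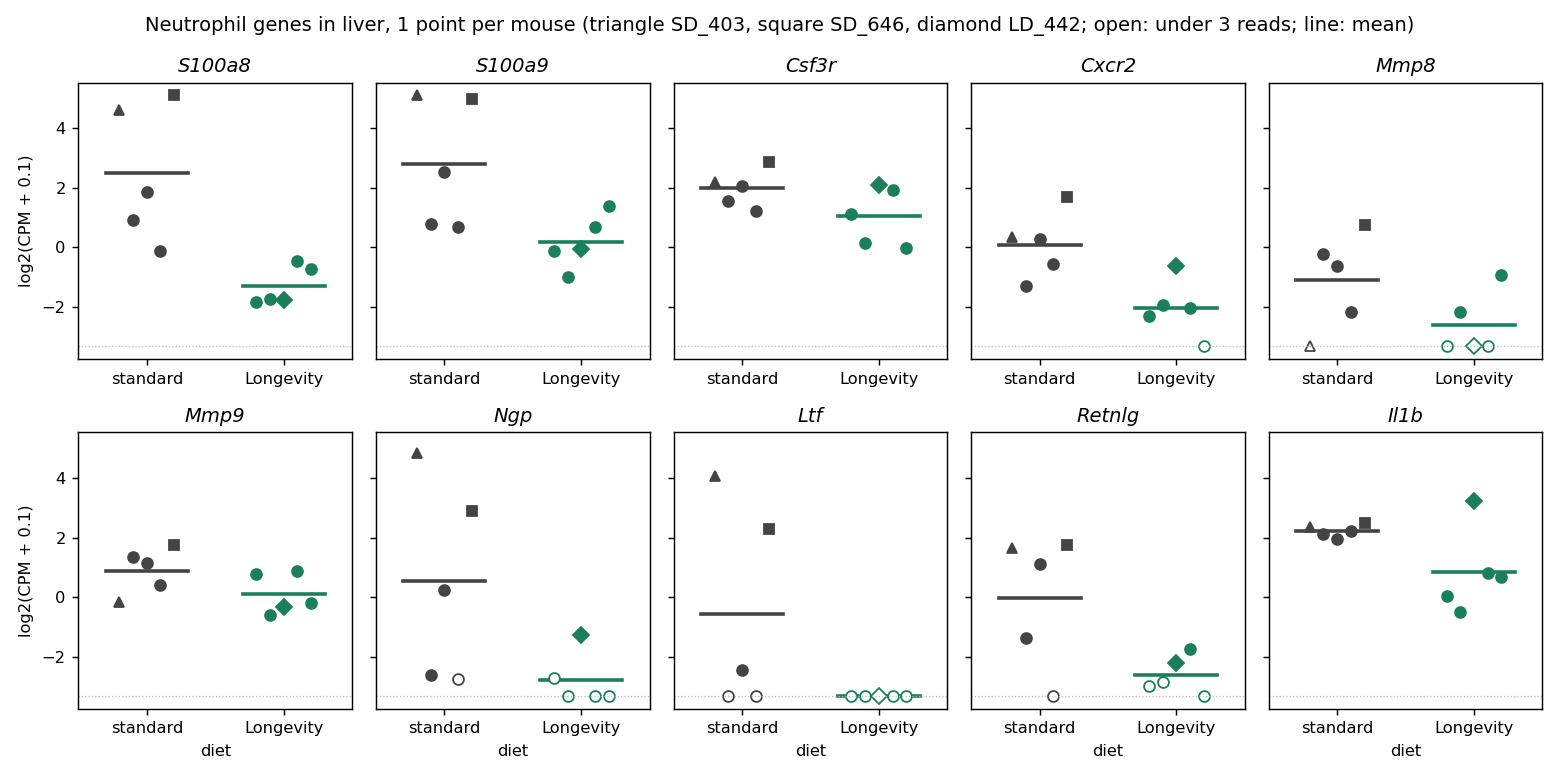
Level of each neutrophil gene as log2(CPM + 0.1) in each mouse, by diet, with the mean as a line. Triangles mark SD_403, squares SD_646 and diamonds LD_442, open symbols are values under 3 reads, and the dotted line is a value of 0 CPM. SD_403 and SD_646 are the highest pair for 7 of the 10 genes, and LD_442 is highest for Il1b.

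The summed level of the members was 119, 14.4, 24.0, 11.1 and 103 CPM on the standard diet and 5.81, 3.11, 16.3, 9.61 and 6.58 CPM on the Longevity diet. SD_403 and SD_646 stood several times above every other mouse, and the other standard diet mice overlapped the Longevity diet, where LD_442 exceeded SD_500 and SD_502. In LD_442 Il1b made up 57.5% of the sum, while in SD_403 S100a9 made up 28.9%, Ngp 24.2%, S100a8 20.7% and Ltf 13.9%. Of the 10 members, 10 reached 3 reads in SD_501 and SD_646, 9 in SD_403 and SD_500 and 7 in SD_502. On the Longevity diet 6 did in LD_405 and LD_515, 7 in LD_406 and LD_513 and 8 in LD_442.

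S100a8 (ENSMUSG00000056054.10, chromosome 3 from 90576285 to 90577342 on mm39, plus strand) encodes one subunit of calprotectin, the calcium- and zinc-binding complex that fills the neutrophil cytosol. Its values were 24.6, 1.80, 3.55, 0.826 and 34.6 CPM on the standard diet and 0.179, 0.202, 0.196, 0.637 and 0.5002 CPM on the Longevity diet. The diets did not overlap, although the lowest standard diet mouse, SD_502, was close to the highest Longevity diet mouse, LD_513, with 33 and 22 estimated reads. All Longevity diet values lay below all standard diet values for 3.49% of the genes tested (2.68% of all genes of the table), and among the 10 members for S100a8 alone. S100a8 fell by 3.79 on the log2 scale, a 13.8-fold difference (SE 0.88, 95% CI -5.68 to -1.89, adjusted p = 0.0456, limma). That call was lost in 19 of 24 alternative settings, among them without SD_403 (log2 difference -3.25, adjusted p = 0.121), without SD_646 (-3.13, adjusted p = 0.0999) and without both (log2 difference -2.19, adjusted p = 0.225). Leaving out any 1 mouse but SD_502 ended the call, while the log2 difference stayed between -4.43 and -3.13.

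**Figure D2:**
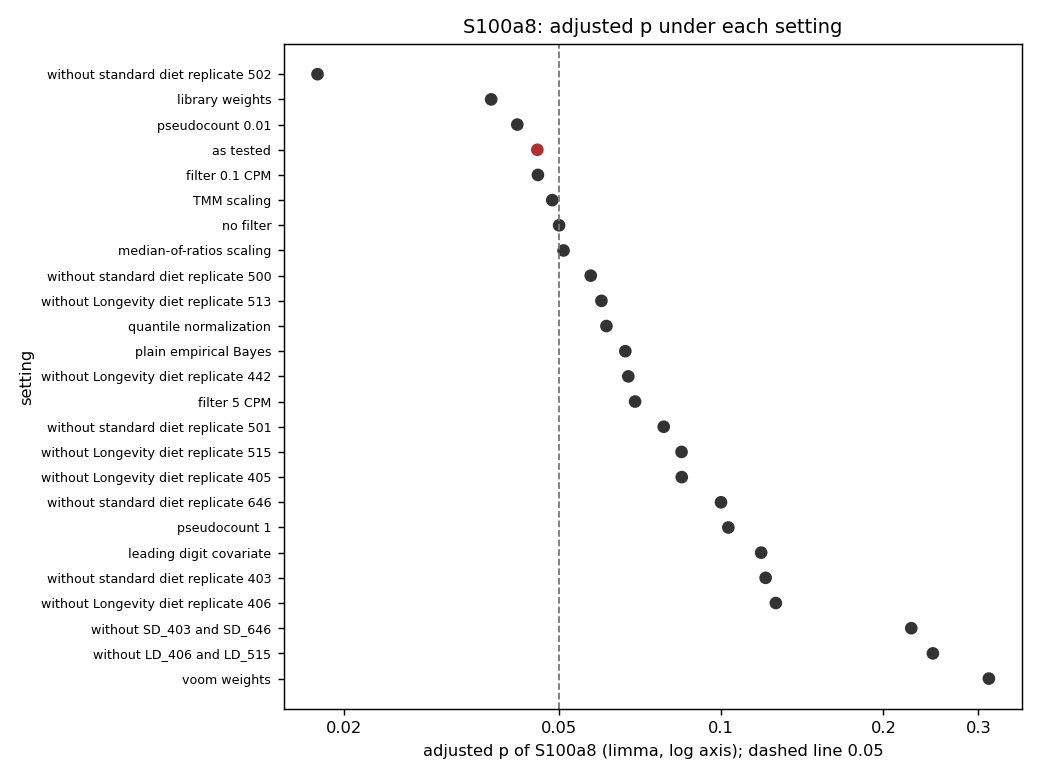
Adjusted p of S100a8 (log axis) as tested (red) and in 24 alternative settings (black), with the threshold of 0.05 as a dashed line. The values run from 0.0178 without SD_502 to 0.314 with voom weights, and 5 alternatives lie under the threshold.

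S100a9 (chromosome 3 from 90599939 to 90603028, minus strand) encodes the other subunit of calprotectin and lies close to S100a8. It stood at 34.4, 1.62, 5.64, 1.502 and 31.9 CPM on the standard diet and 0.819, 0.404, 0.864, 1.505 and 2.501 CPM on the Longevity diet. SD_500 and SD_502 lay below LD_515, so the diets overlapped, and the log2 difference was -2.64 (95% CI -4.46 to -0.82, adjusted p = 0.131). After the mean of each diet was taken off, the log2 levels of S100a8 and S100a9 correlated at 0.96 over the 10 mice (Pearson, a description, in which all points share library and depth).

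Of the receptors, Csf3r differed less. Csf3r (chromosome 4 from 125918343 to 125938233, plus strand) encodes the receptor of G-CSF, which drives neutrophil production. Its values were 4.49, 2.83, 4.11, 2.23 and 7.18 CPM on the standard diet and 2.07, 1.01, 4.20, 3.70 and 0.885 CPM on the Longevity diet. LD_442 and LD_513 lay within the standard diet range, and LD_406 and LD_515 were lowest of the 10 mice (log2 difference -0.92, 95% CI -1.93 to 0.08, adjusted p = 0.323). Without LD_406 and LD_515 the difference was -0.26 (adjusted p = 0.864).

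Cxcr2 (chromosome 1 from 74193148 to 74200405, plus strand), the chemokine receptor that brings neutrophils out of marrow and into tissue, averaged 0.724 CPM over all mice and so was under the filter. It was at 1.18, 0.307, 1.11, 0.576 and 3.10 CPM on the standard diet and 0.102, 0.162, 0.550, 0.145 and 0 CPM on the Longevity diet, or 14 to 140 and 0 to 14 estimated reads. LD_442 exceeded SD_500, and the other 4 Longevity diet mice lay below every standard diet mouse. In the fit without a filter, over all 19414 genes, the log2 difference was -2.13 (95% CI -3.46 to -0.80, adjusted p = 0.115). That fit called 0 of the 10 members, S100a8 missing the threshold at an adjusted p of 0.05003, where 0.85% of all genes were called lower and 0.464% higher. At an unadjusted p under 0.05 it gave 6 of the 10 members, all lower, where 9.96% of all genes were lower by that rule.

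Ngp and Ltf, secondary granule genes, had the widest spread of log2 levels within the standard diet among the 10 members. Ngp (chromosome 9 from 110248815 to 110252080, plus strand), which encodes a cathelicidin-related granule protein, was at 28.9, 0.0657, 1.08, 0.0501 and 7.33 CPM on the standard diet. On the Longevity diet it was at 0.0512, 0, 0.314, 0 and 0 CPM. SD_403, SD_646 and SD_501 had 1318, 331 and 39 estimated reads, LD_442 had 8, and no other mouse had more than 3. The log2 difference was -3.33 (95% CI -6.15 to -0.50, adjusted p = 0.208), and without SD_403 and SD_646 it was -1.10 (adjusted p = 0.7102).

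Ltf (chromosome 9 from 110848339 to 110871835, plus strand) encodes lactoferrin, an iron-binding protein of the same granules. It was found at 16.6 CPM in SD_403 and 4.76 CPM in SD_646, at 0.0833 CPM (3 estimated reads) in SD_501 and at 0 in the other 7 mice. At the depth of the Longevity diet libraries, 0 reads allow a level of up to 0.0768 to 0.121 CPM. The fitted log2 difference of -2.77 (adjusted p = 0.327) depends on the added 0.1 CPM, ran from -4.56 to -0.29 across settings, and is not a bound. Both genes passed the filter through SD_403 and SD_646 alone, and so did S100a8, the only member called.

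Mmp8 and Mmp9, the neutrophil collagenase and gelatinase, were high in SD_646 but not in SD_403. Mmp8 (chromosome 9 from 7558457 to 7568486, plus strand; under the filter) was at 0, 0.767, 0.555, 0.125 and 1.59 CPM on the standard diet and 0, 0.121, 0, 0 and 0.423 CPM on the Longevity diet. SD_403, the mouse highest in Ngp and Ltf, had 0 Mmp8 reads, while SD_646 was highest in it with 72. The log2 difference in the fit without a filter was -1.51 (95% CI -3.07 to 0.05, adjusted p = 0.364).

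Mmp9 (chromosome 2 from 164782700 to 164797770, plus strand) was at 0.788, 2.43, 2.11, 1.23 and 3.26 CPM on the standard diet and 1.64, 0.566, 0.707, 1.77 and 0.769 CPM on the Longevity diet. SD_403 was the lowest of its diet in Mmp9 as well, and lay among the Longevity diet values (log2 difference -0.77, 95% CI -1.78 to 0.23, adjusted p = 0.413). Among 18 listed matrix metalloproteinases and their inhibitors, a list that includes both genes, 10 were tested and 0 rose or fell (2 at an unadjusted p under 0.05). Their median log2 difference was -0.36 against -0.11 for all genes tested. Without a filter, 9.96% of all genes were lower at an unadjusted p under 0.05. The unadjusted count of the list is of tested genes in either direction, so that share is not its direct counterpart.

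Retnlg (chromosome 16 from 48692984 to 48694859, plus strand), a resistin-like peptide secreted by mature neutrophils, was under the filter. Its values were 3.02, 0.285, 2.05, 0 and 3.30 CPM on the standard diet and 0.0256, 0.0404, 0.118, 0.203 and 0 CPM on the Longevity diet. All standard diet mice except SD_502 exceeded all Longevity diet mice, none of which had more than 7 estimated reads. The log2 difference without a filter was -2.58 (95% CI -4.37 to -0.78, adjusted p = 0.161), and without SD_403 and SD_646 as well it was -1.42 (adjusted p = 0.563), an alternative chosen after seeing the data. That alternative gave -1.51 for Cxcr2 (adjusted p = 0.424) and -1.63 for Mmp8 (adjusted p = 0.423).

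Il1b (chromosome 2 from 129206490 to 129213059, minus strand) encodes interleukin-1 beta, the inflammatory cytokine that neutrophils share with macrophages. Its values were 5.01, 4.27, 3.75, 4.56 and 5.60 CPM on the standard diet and 0.922, 0.607, 9.39, 1.65 and 1.501 CPM on the Longevity diet. The standard diet mice lay close together, and 4 of the 5 Longevity diet mice lay below all of them, but LD_442 was the highest of the study. With all mice the log2 difference was -1.38 (95% CI -2.57 to -0.19, adjusted p = 0.216). Without LD_442 it was -1.98, and Il1b then passed the test (adjusted p = 0.0156). LD_442 also had the highest summed level of Kupffer cell and macrophage markers (1475.5 CPM, against 443 to 1308 in the other Longevity diet mice and 839 to 1395 on the standard diet). By the mean log2 level of these markers SD_403 was higher, at 5.61 against 5.53 in LD_442. The part of macrophages in the Il1b level of LD_442 was not tested.

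**Figure D3:**
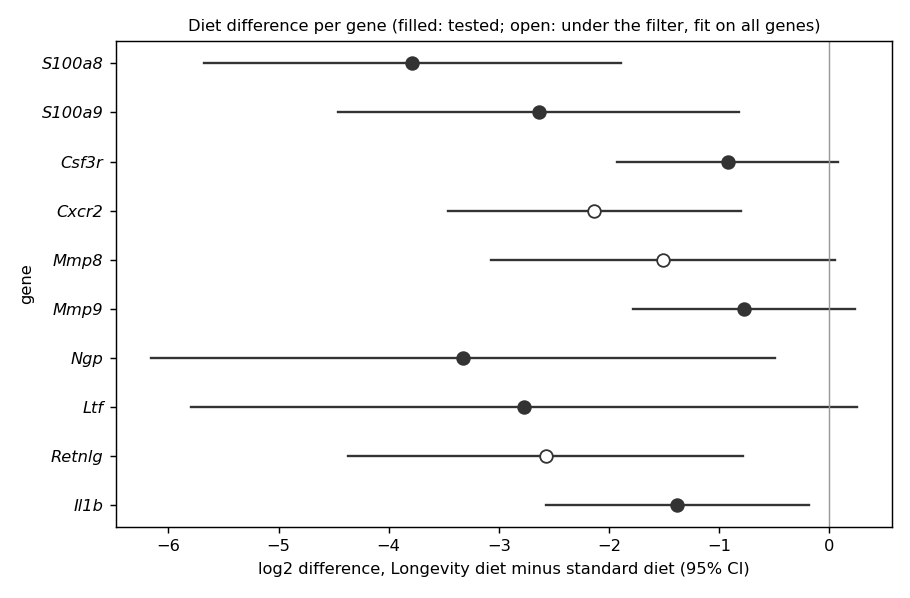
Log2 difference (Longevity diet minus standard diet, with 95% CI) of each neutrophil gene. Filled points come from the fit of 13157 genes and open points, for the 3 genes under the filter, from the fit of all 19414 genes. All 10 estimates are negative, from -3.79 for S100a8 to -0.77 for Mmp9, and the intervals of Csf3r, Mmp8, Mmp9 and Ltf reach above 0.

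Over all 10 members the median log2 difference in the fit without a filter was -2.35, where the median of all genes was -0.15 and 62% of all genes were negative. SD_403 and SD_646 were the highest pair for 7 members, and for 4.08% of all genes in the table. The pair was named after the values of these members were seen, so that share does not measure how unusual their count is. Within the standard diet, the spread of log2 levels of S100a8, S100a9, Ngp, Ltf and Retnlg exceeded that of at least 99.3% of the genes tested, with 99.4% for S100a8 and 99.9% for Ngp and Ltf. Il1b was the reverse, with a standard deviation of 0.22 on the log2 scale within the standard diet (above 17.1% of genes) and 1.44 within the Longevity diet (above 97.4%).

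Some members varied together among mice more closely than others, without a sharp division. After the diet means were taken off, the 10 pairs among S100a8, S100a9, Ngp, Ltf and Retnlg correlated at 0.73 to 0.96 over the 10 mice. The other 35 pairs had a median of 0.17 (-0.24 to 0.77). Csf3r and Cxcr2 correlated with each other at 0.77, Il1b with Csf3r at 0.61, and Mmp9 with Mmp8 at 0.43. Cxcr2 correlated with Ngp at 0.69 and with Retnlg at 0.66, and Csf3r with Retnlg at 0.67. The 5 genes were picked from these values, and SD_403 and SD_646 were the highest pair for each of them.

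Other granulocyte genes were then read from lists of the pathway. Of 21 listed granule genes outside the members, 20 were in the table and 14 were tested; 1 fell and 0 rose, with a median log2 difference of -0.89. The gene that fell was Lcn2, which encodes a siderophore-binding protein made by neutrophils and also by hepatocytes. It was at 113, 51.4, 62.6, 47.1 and 181 CPM on the standard diet and 31.6, 9.10, 18.1, 36.2 and 8.93 CPM on the Longevity diet (log2 difference -2.16, adjusted p = 0.0315). Its call was lost in 10 of 24 alternative settings. SD_403 and SD_646 were the highest pair for 10 of the 20 genes.

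Primary granule genes stood in the same pair of mice. Mpo, myeloperoxidase, was at 7.75 CPM in SD_403 and 5.21 CPM in SD_646, at 0.0876 to 0.175 CPM in the other standard diet mice and at 0 in all 5 Longevity diet mice (adjusted p = 0.173). Prtn3, proteinase 3, was at 13.6 and 55.9 CPM in that pair, at 0.898 to 3.86 CPM in the other standard diet mice and at 0.203 to 1.31 CPM on the Longevity diet (adjusted p = 0.170). Elane, neutrophil elastase, was at 4.16 and 4.01 CPM in SD_403 and SD_646 and no higher than 0.314 CPM elsewhere, and Ctsg, cathepsin G, was at 1.16 and 1.42 CPM and no higher than 0.139 CPM elsewhere. Anxa1, a regulator of leukocyte adhesion that many cells express, was at 3.15 to 9.24 and 2.06 to 4.38 CPM on the 2 diets (adjusted p = 0.145). Elane and Ctsg, as well as the genes of the next paragraph down to Cd177, were chosen after their values were seen.

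Camp, the cathelicidin gene, was at 12.6 CPM in SD_403 and 4.63 CPM in SD_646, and at most at 0.555 CPM in any other mouse. Chil3, a chitinase-like protein of neutrophils and macrophages, was at 1.75 and 2.26 CPM in the pair. Fcnb, a ficolin of marrow granulocyte precursors, was at 1.66 CPM in SD_403, 0.155 CPM in SD_646 and 0 in the other 8 mice. The surface markers were less uniform: Cd177 was at 3.61 and 2.06 CPM in the pair and at most at 0.548 CPM in the others, whereas Ly6g, which defines mature mouse neutrophils, did not exceed 0.461 CPM and was highest in LD_405. So the granule genes named here, picked by p, by likeness or after their values were seen, were highest in SD_403 and SD_646. Ly6g was at 0 in 6 of the 10 mice. The summed level of all listed granule genes outside the members, which is set by the most abundant of them, did not follow that pair. It was highest in LD_405, at 6077 CPM, against 5356 CPM in SD_646 and 4514 CPM in SD_403. The mean log2 level of the same list, which weighs its genes alike, was highest in the pair. It was 3.06 in SD_403 and 2.71 in SD_646, against 0.105 to 1.59 in the other mice.

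**Figure D4:**
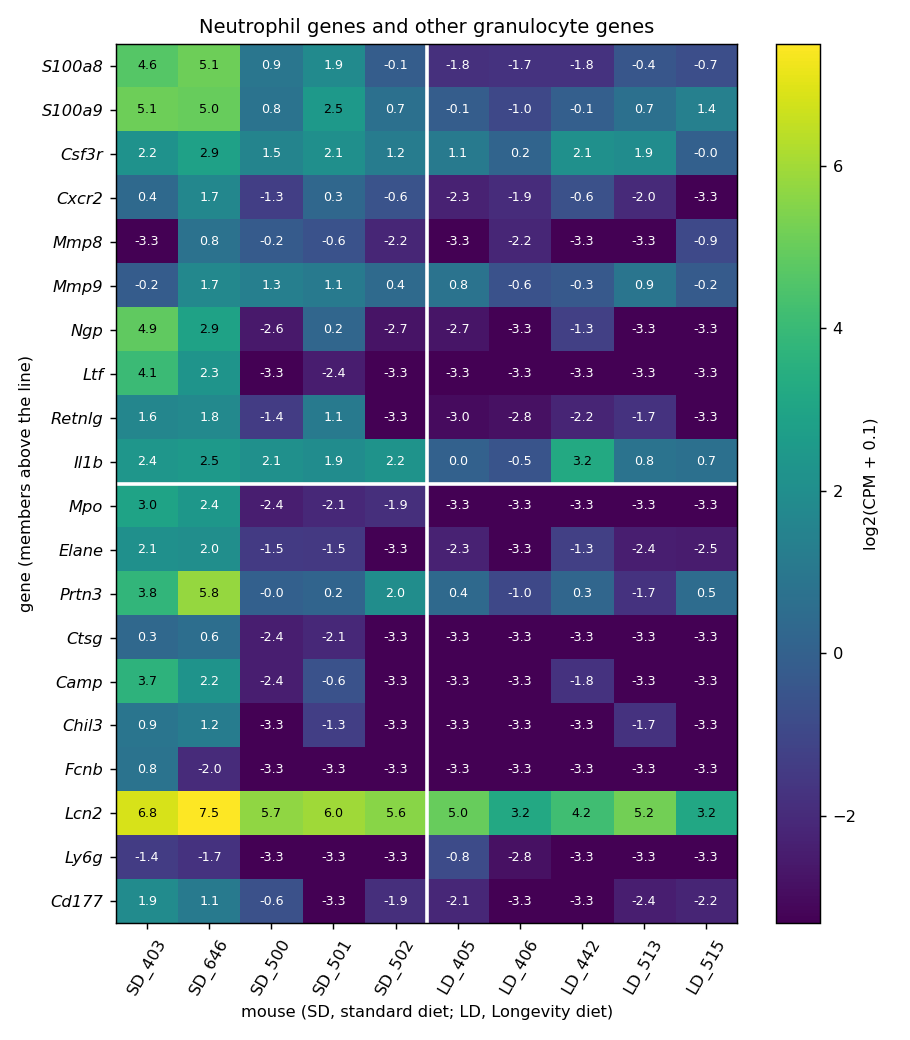
Level as log2(CPM + 0.1) of the 10 neutrophil genes (above the white line) and 10 other granulocyte genes in each mouse, with SD_403 and SD_646 placed first. A value of -3.3 is 0 CPM. Granule genes from Mpo to Chil3 are high in those 2 columns, Mmp8 is at 0 CPM in SD_403, and Ly6g is low throughout.

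Among 34 listed surface and cytosol genes of neutrophils, 22 were tested; 2 fell and 0 rose, with a median of -0.77. Tnfaip2, a gene induced by tumour necrosis factor in many cells, fell from 36.1 ± 11.7 to 15.1 ± 3.99 CPM (mean ± standard deviation, n = 5 each, adjusted p = 0.0262). Wfdc21 fell from 577 ± 155 to 267 ± 103 CPM (adjusted p = 0.0383). SD_500 was highest in Tnfaip2, whereas SD_403 and SD_646 were the highest pair in Wfdc21, with 603 and 817 CPM against 390 to 551 CPM in the rest of their diet. That pair was highest for 5 of the 32 listed genes in the table. Of 24 alternative settings, 8 ended the call of Tnfaip2 and 14 that of Wfdc21. Lilrb4a, an inhibitory receptor of myeloid cells, had a log2 difference of -1.25 (adjusted p = 0.125). G0s2, an inhibitor of triglyceride lipolysis that neutrophils share with hepatocytes, had one of 1.32 (adjusted p = 0.160).

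Lists of genes for neutrophil production, attraction and signals held no called gene, whereas a list of liver genes responsive to IL-1 and IL-6 did. A link of the latter to neutrophils was not tested. In the fit without a filter, over all genes, 9.96% were lower at an unadjusted p under 0.05 and 62% were negative. The unadjusted counts below are of tested genes in either direction, so the 9.96% is not their direct counterpart. Of 12 listed regulators of granulocyte production 7 were tested and 0 rose or fell (0 at an unadjusted p under 0.05). Of 15 chemoattractant and adhesion genes 8 were tested and 0 passed (2 at an unadjusted p under 0.05, Selp, an endothelial and platelet selectin, and Vcam1), with all 8 differences negative and a median of -0.48. Cxcl1, a neutrophil-attracting chemokine ligand of Cxcr2, was at 14.2 to 46.9 CPM on the standard diet and 2.43 to 63.3 CPM on the Longevity diet, where LD_513 was the highest of all mice (adjusted p = 0.318). Of the IL-1 pathway, a list that includes the member Il1b, 13 of 14 genes were tested and 0 passed (median -0.26). At an unadjusted p under 0.05 there were 4, Il1b among them, and Il1a was at 2.10 to 3.40 and 1.05 to 2.91 CPM. Of 9 calprotectin receptor genes 7 were tested and 0 passed (2 at an unadjusted p under 0.05, median -0.31). Of 24 liver genes responsive to IL-1 and IL-6 all were tested, and 5 fell and 0 rose (median -0.50). These were Orm1, Orm2 and Orm3, which encode the acute phase protein orosomucoid and are near-identical enough that reads may be split among them, Lcn2, and Steap4, a metalloreductase. Orm1 fell from 775 ± 259 to 107 ± 106 CPM, Orm2 from 44.0 ± 22.7 to 4.11 ± 2.92 CPM, Orm3 from 7.74 ± 9.43 to 0.3003 ± 0.309 CPM and Steap4 from 130 ± 28.3 to 55.9 ± 27.2 CPM (adjusted p = 0.0216, 0.0108, 0.0211 and 0.0422). SD_403 and SD_646 were the highest pair for Orm1 and Lcn2 among the 24.

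Markers of other cells were read beside these results. In the fit without a filter, 9.96% of all genes were lower at an unadjusted p under 0.05 and 62% were negative. The unadjusted counts below are of tested genes in either direction, so the 9.96% is not their direct counterpart. The 1 T and NK cell marker counted, Prf1, was higher on the Longevity diet (log2 difference 1.09). Of 11 tested monocyte markers 0 passed (3 at an unadjusted p under 0.05), with 11 negative and a median of -0.74. Their summed level was 868 to 2559 CPM on the standard diet and 602 to 1315 CPM on the Longevity diet. Such a sum is set by its most abundant genes, and Ly6c2 reached 10.0 CPM and Ccr2 6.02 CPM at most. Their mean log2 level was 1.04 to 2.05 and 0.235 to 1.60 on the 2 diets. SD_502, highest by the sum, was the lowest of its diet by that mean. SD_403 and SD_646 were the highest pair for none of the 15 markers in the table. The same held for all 17 Kupffer cell, 14 B and plasma cell and 17 T and NK cell markers in the table. Of these markers 17, 13 and 13 were tested and 0 passed (3, 7 and 1 at an unadjusted p under 0.05). Those of B and plasma cells had a median of -1.26 and summed to 445 to 592 and 354 to 517 CPM. Cd79a among them reached 9.79 CPM at most, and their mean log2 level was 2.06 to 2.97 and 0.548 to 2.41. T and NK cell markers had a median of -0.38 and summed to 15.5 to 48.2 and 8.77 to 55.9 CPM. Of 14 markers of mast cells, basophils and eosinophils 1 was tested, and no entry was found in the table for Epx, Prg2, Fcer1a, Ms4a2, Tpsb2 and Tpsab1.

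Markers of the other liver cells differed between the diets as well. Across all genes, 62% were negative and 9.96% were lower at an unadjusted p under 0.05 in the fit without a filter. Here too the unadjusted counts are of tested genes in either direction, so the 9.96% is not their direct counterpart. Of 12 stellate cell and fibroblast markers, all tested, 1 fell and 0 rose (8 at an unadjusted p under 0.05), with 12 differences negative and a median of -0.81. The gene that fell was Pdgfrb, a growth factor receptor of stellate cells (log2 difference -1.36, adjusted p = 0.0290). Their summed level was 356 to 538 CPM on the standard diet and 186 to 330 CPM on the Longevity diet, without overlap. Of 10 endothelial markers, all tested, 0 rose or fell (8 at an unadjusted p under 0.05), with 10 negative and a median of -0.78, and their sums did not overlap either (258 to 362 and 110 to 222 CPM). Of 14 hepatocyte markers 1 fell, Cps1 of the urea cycle (log2 difference -0.98, adjusted p = 0.0376), and 0 rose (5 at an unadjusted p under 0.05), with a median of 0.04. Hepatocyte markers summed to 138324 to 188007 CPM on the standard diet and 188836 to 248957 CPM on the Longevity diet. SD_403 and SD_646 were the highest pair for 1 of these genes, the stellate and fibroblast marker Rgs5. The part of cell makeup in the neutrophil gene differences was not tested.

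Blood genes gave mixed readings. Erythroid genes summed to 415 CPM in SD_403 and 804 CPM in SD_646, 118 to 281 CPM in the other standard diet mice and 218 to 636 CPM on the Longevity diet, so SD_646 was highest and SD_403 was below LD_405 and LD_515. Platelet genes summed to 49.97 and 26.5 CPM in the pair, 17.8 to 29.4 CPM in the other standard diet mice and 10.7 to 21.8 CPM on the Longevity diet. The pair was highest for 3 of 11 platelet genes in the table (Ppbp, Itga2b and Gp1bb) and 0 of 11 erythroid genes. By mean log2 level LD_515 (3.44) and SD_403 (3.41) were highest for erythroid genes, and SD_403 (1.36) and SD_646 (-0.44) for platelet genes. Ppbp, a platelet chemokine, was at 6.55 CPM in SD_403 and at most at 0.997 CPM elsewhere. Of 9 erythroid and 4 platelet genes tested 0 passed (3 and 3 at an unadjusted p under 0.05, in either direction). Without a filter, 9.96% of all genes were lower at that p. The part of blood or other cells in the neutrophil gene levels was not tested.

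The genes most like the members were taken from all genes tested. Likeness was the Pearson correlation, after the diet means were taken off, with the mean log2 level of the 7 members that passed the filter, over 10 mice. S100a8, Ngp and Ltf passed it through SD_403 and SD_646 alone, so this rule favours genes high in that pair. Their levels in the pair, given below, follow in part from the ranking. Leaving out predicted genes and pseudogenes, the 10 highest were Tnfsfm13 (0.97), Pglyrp1 (0.96), Camp (0.96), Slfn4 (0.93), Mpo (0.91), a long non-coding RNA listed as ENSMUSG00000120841 (0.90), Grb7 (0.89), Atg16l2 (0.88), Cd46 (0.87) and Cd300lf (0.87). Pglyrp1, which encodes a peptidoglycan-binding granule protein, was at 3.74 and 3.08 CPM in SD_403 and SD_646 and at 0.175 to 1.19 CPM in the other mice. Slfn4, a myeloid gene, was at 3.26 and 5.96 CPM in the pair and at 0.1001 to 0.943 CPM in the others. Grb7, an adaptor of receptor tyrosine kinases, was at 110 and 114 CPM in the pair and at 75.1 to 105 CPM in the others, so a high correlation here can go with a small difference in level. None of the 10 rose or fell between the diets.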

How the data were processed

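RNA of 10 livers, 1 per mouse by the titles, was sequenced after poly-A selection. The authors deposited 1 table of all mice; its values are CPM, scaled by the authors to 1000000 per library with 0.0001 added, as the column totals of the deposited file show. STAR, Partek and the build mm39 are named in the submitters' processing notes, with versions not given, and strandedness is not given in the sources used here. The constant was subtracted, and depth was estimated from the step of low values; in each library 84.5% to 87.9% of the values below 100 reads came out whole (tolerance 0.1 read), so no count test was run.

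Differences were fitted with limma 3.58.1 (statmod 1.5.0, R 4.3.3; trended, robust empirical Bayes, diet as the only term, two-sided) on log2(CPM + 0.1), with Benjamini-Hochberg adjustment over the 13157 genes averaging 1 CPM or more. The script was tested on simulated data. Members and gene lists were chosen with earlier results of these data known. Of each list up to 4 tested genes with the smallest p were named, with the 10 genes most like the members; other names were chosen after their values were seen. The end of a gene is the deposited stop minus 1, which matched the annotation of 15 of 15 mitochondrial genes. Alternatives changed the pseudocount, filter, scaling, weights, empirical Bayes, a covariate or the mice included.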

Additional observations from a re-analysis of the deposited data

Results flagged for a closer look

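Among 22 sets of 5 mice (a gene or summed level within a diet), 5 had a highest mouse that stood apart from the others. Its gap to the next mouse exceeded 0.71 of the whole range, a limit set for about 1 in 20 sets of normally distributed values. That rate does not hold here, because the CPM are skewed with many near 0 and the sets share mice. The count is a description only. Ngp in SD_403 was at 28.9 CPM, with 0.0501 to 7.33 CPM in the rest of the standard diet (gap 0.747 of the range). Ltf in SD_403 was at 16.6 CPM, with 0 to 4.76 CPM in the others (0.713). On the Longevity diet, Ngp in LD_442 was at 0.314 CPM, with 0 to 0.0512 CPM in the others (0.837). Il1b in LD_442 was at 9.39 CPM, with 0.607 to 1.65 CPM in the others (0.881). Mmp8 in LD_515 was at 0.423 CPM, with 0 to 0.121 CPM in the others (0.713).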

How the results depend on the processing

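No member tested changed sign in any alternative. The number of members that fell went from 1 to 0 with a pseudocount of 1 CPM, no filter, a filter of 5 CPM, median-of-ratios scaling, quantile normalization, plain empirical Bayes, the leading digit of the mouse number as a covariate, voom weights, and without SD_403 and SD_646 or LD_406 and LD_515. Leaving out 1 mouse gave 0 to 1; without SD_502 it was S100a8 and without LD_442 it was Il1b. The leading digit of SD_646 is shared with no other mouse, so the covariate fits that mouse exactly and takes it out of the diet difference. The cause of these changes was not tested, apart from that and the fewer mice or other genes tested that some settings bring.

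Of all genes tested, 87 rose and 162 fell. The number that rose was 154 with median-of-ratios scaling, 170 with TMM scaling, 151 with quantile normalization, 329 with library weights, 28 with the covariate, 15 without SD_403 and SD_646 and 2 without LD_406 and LD_515. The number that fell was 476 with library weights, 70 with the covariate, 18 without SD_403 and SD_646 and 15 without LD_406 and LD_515. Leaving out 1 mouse gave 31 to 151 that rose and 58 to 227 that fell. No paired analysis was possible because the mouse numbers of the diets do not overlap. Depth limits Ltf, Ngp, Mmp8 and Retnlg most, since at most 2 Longevity diet mice had 3 reads or more of any of them, and Longevity diet libraries were shallower.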
